A study of Danio rerio with 12 samples.

Results

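The genes described here encode the acid machinery of the lysosome: the proton pump that acidifies it (V-ATPase), the cathepsins that digest protein inside it, and the LAMP proteins of its membrane. They were taken from the deposited gene table by name alone, as every gene whose symbol starts with atp6v, with cts and a further letter, or with lamp and a digit. This rule found 45 of the 25281 genes: 9 of the membrane sector of the pump (V0), 13 of its cytosolic sector (V1), 20 cathepsins and 3 LAMP genes. All fish were labelled wild type, with no strain given. Their age is labelled as 2 to 3 months, and the study's methods make them older, since they were kept for a time after purchase. The study compared 3 groups of 4 fish each: fish without food for 24 h (Fast), and fish that were refed after such a fast and taken 3 h (Refed_3h) or 8 h (Refed_8h) later. Each library came from the trunk muscle of 1 fish, cut between the anus and the tail fin. By the study's methods each group held 2 females, but the sex of a given fish is not stated. No group of continuously fed fish was analysed here, and hours since the meal cannot be told apart from the hour of the day at which the fish were taken.

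The lysosome breaks down proteins, lipids, sugars and organelles that reach it by endocytosis or by autophagy, and in fasted muscle autophagy is one route by which protein is released as amino acids. Its enzymes work at low pH. The V-ATPase makes that pH: ATP is split by the V1 sector, which turns a rotor, and the rotor drives protons through the V0 sector in the membrane. Cathepsins are made as inactive precursors that are cut to the active form in the acid lumen. LAMP proteins are heavily glycosylated and line the inner face of the lysosomal membrane. Transcripts are reported below, not pump assembly, lysosomal pH or protease activity.

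The libraries held 11929140 to 18446239 counts each, of which 15577 to 34825 fell on the 45 genes. After the filter on low counts, 16745 genes were tested with edgeR, and 37 of the 45 were among them (9 V0, 12 V1, 13 cathepsins, 3 LAMP). Levels are given as the authors' TPM (transcript counts corrected for gene length and library size), and differences as log2 fold changes of edgeR, which scales libraries by TMM. The 2 scales were not centred alike: the median gene differed on the TPM scale by -0.26 log2 units between Refed_3h and Fast and by 0.18 between Refed_8h and Refed_3h, against -0.01 and 0.01 in edgeR. Muscle markers such as creatine kinase and fast myosin genes summed to 96780 to 145802 TPM per fish. Their mean sums were 108390 ± 11515 TPM in Fast, 128580 ± 15646 in Refed_3h and 126972 ± 14992 in Refed_8h (SD, n = 4). Markers of skin epithelium summed to 13475 to 26423 TPM and those of macrophages to 1428 to 3222 TPM, so RNA of other tissues was present. In bulk tissue, fewer cells of a type and less RNA per cell cannot be told apart.

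The cathepsins were the group with called differences, and these lay between the 2 refed groups. Between Refed_8h and Refed_3h, ctsc, ctsd, ctsh and ctss2.2 were higher at 8 h, by 1.58-fold to 1.65-fold, in edgeR's quasi-likelihood test with Benjamini-Hochberg adjusted p-values of 0.028 to 0.047. These 4 are 10.8% of the 37 tested members, beside 6.41% of all tested genes called in either direction in this comparison and 3.06% called higher. All 4 are cathepsins, 30.8% of the 13 tested. None reached 2-fold, where 2.78% of all tested genes were both called and past 2-fold. The calls depended on single fish. With any 1 of Refed_3h replicates 1, 2 and 3 or Refed_8h replicates 1, 2 and 4 left out, 0 members passed at an adjusted p of 0.05 in edgeR. Then 9 to 13 members had an unadjusted p under 0.05, beside 17.9% to 22.1% of all tested genes.

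Cathepsin C (ctsc; chromosome 15, 43604032 to 43625549, GRCz11) removes dipeptides from the ends of proteins and, in mammals, activates the serine proteases of immune cells. Its TPM in replicates 1 to 4 were 53.2, 44.5, 46.5 and 47.6 in Fast, 34.5, 31.3, 29.4 and 31.3 in Refed_3h, and 81.4, 55.5, 39.1 and 74.1 in Refed_8h. Every Refed_8h fish lay above every Refed_3h fish in TPM, while replicate 3 of Refed_8h fell below all the fasted fish. On the TMM-scaled values the 2 refed groups overlapped. The log2 fold change from Refed_3h to Refed_8h was 0.70 (SE 0.17, adjusted p = 0.028 in edgeR), and that from Fast to Refed_3h was -0.24 (SE 0.17, adjusted p = 0.42).

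Cathepsin D (ctsd; chromosome 18, 16133595 to 16146081) is the main aspartic protease of lysosomes. It measured 106, 110, 114 and 128 TPM in the 4 fasted fish, 87.4, 86.0, 75.1 and 75.4 TPM in Refed_3h, and 180, 140, 106 and 191 TPM in Refed_8h. Refed_8h did not overlap Refed_3h on either scale, and its replicate 3 sat at the lower edge of the fasted fish. The log2 fold change from Refed_3h to Refed_8h was 0.66 (SE 0.17, adjusted p = 0.034 in edgeR). Against Fast, Refed_8h differed by 0.51 (SE 0.17, adjusted p = 0.19), which did not pass.

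Cathepsin H (ctsh; chromosome 18, 26422124 to 26428525) is a cysteine protease that trims proteins from their amino end. Its levels were 50.2, 51.9, 32.9 and 51.4 TPM in Fast, 35.6, 42.8, 41.5 and 34.2 in Refed_3h, and 101, 62.1, 52.6 and 88.4 TPM in Refed_8h. All Refed_8h fish lay above the 8 others, both in TPM and in TMM-scaled values. It rose by 0.71 log2 units from Refed_3h to Refed_8h (SE 0.18, adjusted p = 0.037 in edgeR). Against Fast the difference was of similar size, 0.77 (SE 0.18), but its adjusted p was 0.058 in edgeR. DESeq2 called it, as the 1 member that it called between Refed_8h and Fast. In that comparison DESeq2 called 656 of all 16745 tested genes, and edgeR 234.

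The cathepsin S genes ctss2.1 and ctss2.2 lie side by side on chromosome 16, next to ctsk, while ctss1 is on chromosome 19. Cathepsin S cuts the invariant chain during antigen presentation in mammals. For ctss2.2 (29514473 to 29519977) the 4 fasted fish had 87.4, 81.0, 49.8 and 73.0 TPM, the Refed_3h fish 45.9, 54.3, 48.3 and 33.3 TPM, and the Refed_8h fish 120, 83.8, 55.9 and 97.0 TPM. The refed groups were apart, with a narrow gap between 54.3 TPM in Refed_3h and 55.9 TPM in Refed_8h. The log2 fold change between them was 0.72 (SE 0.20, adjusted p = 0.047 in edgeR). Its neighbour ctss2.1 (29509133 to 29513434) had a larger difference, 1.06, with a larger error (SE 0.32, adjusted p = 0.068), and was not called in edgeR. DESeq2 called it (adjusted p = 0.019), and it passed in 8 of 22 alternatives. It had a mean TPM of 12.0 ± 2.39 in Refed_3h and of 29.8 ± 10.9 in Refed_8h (SD, n = 4), and the groups overlapped by replicate 3 of Refed_8h at 15 TPM. How the authors counted reads that match several genes is not stated in the sources used here, so counts of close copies such as these may be shared.

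Cathepsin B (ctsba; chromosome 17, 32622931 to 32631514), a cysteine protease, was the most abundant of the 45 genes by its mean over the 12 fish, 188 TPM. In Refed_3h alone its mean of 94.8 TPM was below those of atp6v1g1 (109) and atp6v0ca (103). Cathepsin B measured 239, 303, 113 and 230 TPM in Fast, 45.0, 105, 90.3 and 139 in Refed_3h, and 334, 251, 188 and 216 TPM in Refed_8h. The lowest Refed_8h fish was above the highest Refed_3h fish, and 1 fasted fish lay among the Refed_3h values. The spread between fish was wide, so neither the fold change of -0.86 log2 units from Fast to Refed_3h (SE 0.37, adjusted p = 0.19 in edgeR) nor that of 1.09 from Refed_3h to Refed_8h (SE 0.37, adjusted p = 0.1) was called. Limma on log2(TPM + 1) called both, at -1.24 (adjusted p = 0.046) and 1.45 log2 units (adjusted p = 0.035), and DESeq2 called the second (adjusted p = 0.029).

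**Figure D1:**
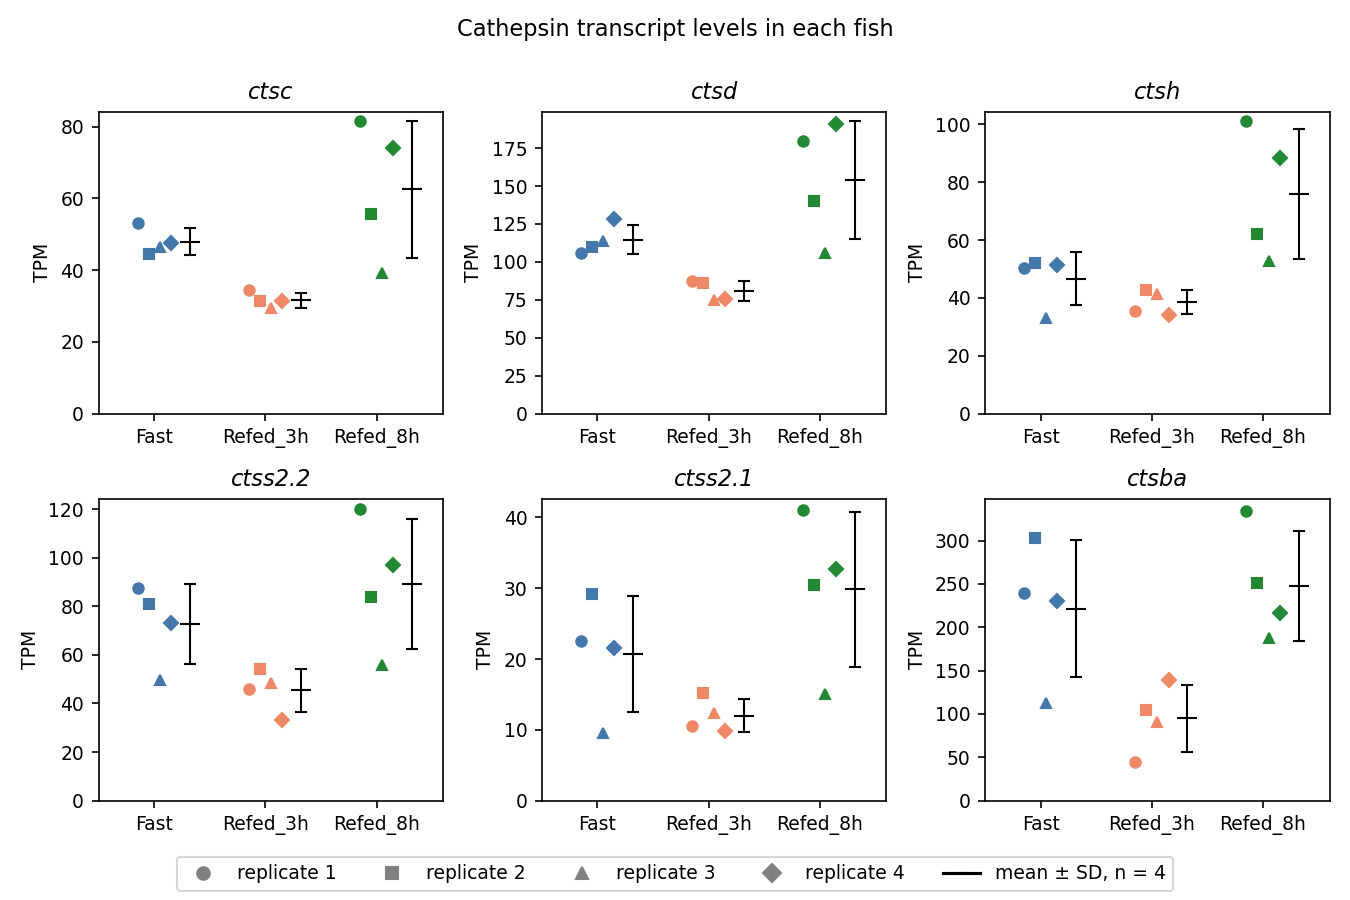
TPM (y axis, linear, starting at 0) of 6 cathepsin genes in each of the 12 fish, by group, with the mean ± SD of 4 fish beside the points. Refed_8h lies above Refed_3h without overlap for every gene drawn except ctss2.1, and replicate 3 (triangles) is the lowest Refed_8h fish in all 6 panels.

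The other 8 tested cathepsins, ctss2.1 included, did not pass the edgeR test in any comparison. By mean level over the 12 fish they were ctsk at 63.5 TPM, ctsz at 60.9, ctsla at 55.8, ctsa at 44.8, ctss2.1 at 20.9, ctsf at 15.9, ctso at 3.86 and ctss1 at 0.773 TPM. The ranges over fish of ctsk, ctsz, ctsla and ctsa overlapped one another, so their order is not fixed by these data. Cathepsin K is known as the collagen-degrading protease of bone-resorbing cells in mammals, cathepsin L (ctsla) is a general cysteine endopeptidase, cathepsin Z trims the carboxyl end, and cathepsin A is a serine carboxypeptidase that also protects other lysosomal enzymes. Between Refed_8h and Refed_3h their log2 fold changes were 0.40 for ctsk (SE 0.21), 0.41 for ctsz (SE 0.21), 0.46 for ctsla (SE 0.25) and 0.19 for ctsa (SE 0.18). The smallest difference among the 13 cathepsins was that of ctsf, 0.05 (95% interval -0.25 to 0.35).

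As a group, the 13 cathepsins had fitted differences of 1 sign in both comparisons that involve Refed_8h. All 13 were positive in Refed_8h against Refed_3h, with a median of 0.50 log2 units where the median of all tested genes was 0.01. All 13 were also positive against Fast, with a median of 0.37 where all genes had 0.00. Of all tested genes, 51.1% and 50.4% were positive in these 2 comparisons. In Refed_3h against Fast 4 were positive and 9 negative, with a median of -0.16. These 3 comparisons share groups, so their signs are not independent of each other, and genes measured in the same fish are not replicates. On the TPM scale the medians over the 14 cathepsins with a mean of at least 0.5 TPM were 0.63, 0.23 and -0.42 in the same order.

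The summed TPM of the 13 cathepsins was 779 ± 149 in Fast, 495 ± 48.8 in Refed_3h and 949 ± 234 in Refed_8h (SD, n = 4). The 4 fasted fish had 844, 890, 559 and 821 TPM, the Refed_3h fish 461, 567, 468 and 484 TPM, and the Refed_8h fish 1231, 926, 659 and 978 TPM. Refed_8h did not overlap Refed_3h, and it overlapped Fast. The same fish stood at the ends for many genes: Refed_8h replicate 1 was the highest of all 12 for 8 of the 13 cathepsins, Refed_8h replicate 3 was the lowest of its group for 11, and Fast replicate 3 the lowest of its group for 8.

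Macrophages are rich in lysosomes, and their markers had positive fitted differences between Refed_8h and Refed_3h, as the cathepsins had. Of 15 macrophage markers, all tested, 5 were called higher in Refed_8h than in Refed_3h, among them marco, a scavenger receptor, at 1.11 log2 units (SE 0.28), the perforin-like mpeg1.2 at 1.02 (SE 0.26) and the NADPH oxidase subunit cybb at 0.86 (SE 0.21). Of all tested genes, 3.06% were called higher in this comparison. All 15 fitted differences of the macrophage markers were positive, with a median of 0.73, and none of the 15 was at 0 in all fish. In Refed_8h against Fast 14 of the 15 were positive, with a median of 0.68. In Refed_3h against Fast 6 of the 15 were positive, with a median of -0.11. The summed level ran from 1968 to 2312 TPM in the fasted fish, from 1428 to 1975 TPM at 3 h and from 1817 to 3222 TPM at 8 h, and most of it was cd74a, the invariant chain, with a mean of 1875 TPM. Without cd74a the other 14 summed to 236 to 316 TPM, 153 to 224 TPM and 248 to 490 TPM. Refed_8h replicate 3 was the lowest of its group for this sum too, at 248 TPM. Other fish ranked differently in the cathepsin sum and in this sum without cd74a. Refed_3h replicate 1 had the lowest cathepsin sum of its group (461 TPM) but the highest of these 14 markers (224 TPM). Refed_3h replicate 2 had the highest cathepsin sum (567 TPM) with 159 TPM of the 14 markers. Fast replicate 2 was highest for cathepsins (890 TPM) and lowest for the 14 markers (236 TPM). In Refed_8h, replicate 1 led the cathepsins (1231 TPM) and replicate 4 the 14 markers (490 TPM). The sum of all 15 markers ranked fish otherwise. It was 2108, 2138, 1968 and 2312 TPM in replicates 1 to 4 of Fast. The Refed_3h fish had 1897, 1975, 1448 and 1428 TPM, and the Refed_8h fish 3222, 2237, 1817 and 3184 TPM. In Refed_8h it had the order of the cathepsin sum. Replicate 2 was highest in both sums of Refed_3h, and replicate 3 lowest in both of Fast. The lowest Refed_3h fish and the highest Fast fish differed. The 4 neutrophil and mast cell markers in the table summed to 12.0 to 25.9 TPM, 3.39 to 13.2 TPM and 17.4 to 27.7 TPM, with mpx called higher in Refed_8h than in Refed_3h. The skin markers overlapped between the refed groups, at 14229 to 23600 TPM and 13475 to 25147 TPM, as did the sum of all 15 macrophage markers. In Fast the skin sums were 26212, 26423, 21673 and 25270 TPM, in the order of the cathepsin sums. Replicate 2 of Refed_3h and replicate 1 of Refed_8h were highest in both sums. The lowest fish for skin were replicate 4 of Refed_3h and replicate 2 of Refed_8h, unlike for the cathepsins. With a skin marker score as a covariate in edgeR, ctsc, ctsd, ctsh and ctss2.2 passed between Refed_8h and Refed_3h. They differed by 0.79, 0.74, 0.83 and 0.88 log2 units (adjusted p = 0.012, 0.019, 0.01 and 0.011). That fit called 1439 of all 16745 tested genes in this comparison, beside 1074 without the score. How skin content itself goes with the spread of the cathepsins between fish was not tested. Opposite to the macrophage markers, the 5 erythrocyte markers had 0 of 5 fitted differences positive between Refed_8h and Refed_3h. Their median was -1.09 log2 units, with sums of 1114 to 4970 TPM in Refed_3h and 1187 to 1969 TPM in Refed_8h. Medians were also negative there for endothelium (0 of 8 positive, -0.24), skeletal muscle (2 of 14, -0.32), skin (5 of 16, -0.32) and ionocytes (0 of 3, -0.20). Pigment cell markers had a positive median (6 of 9, 0.19). The part of macrophages and other blood cells in the cathepsin differences was not tested.

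**Figure D2:**
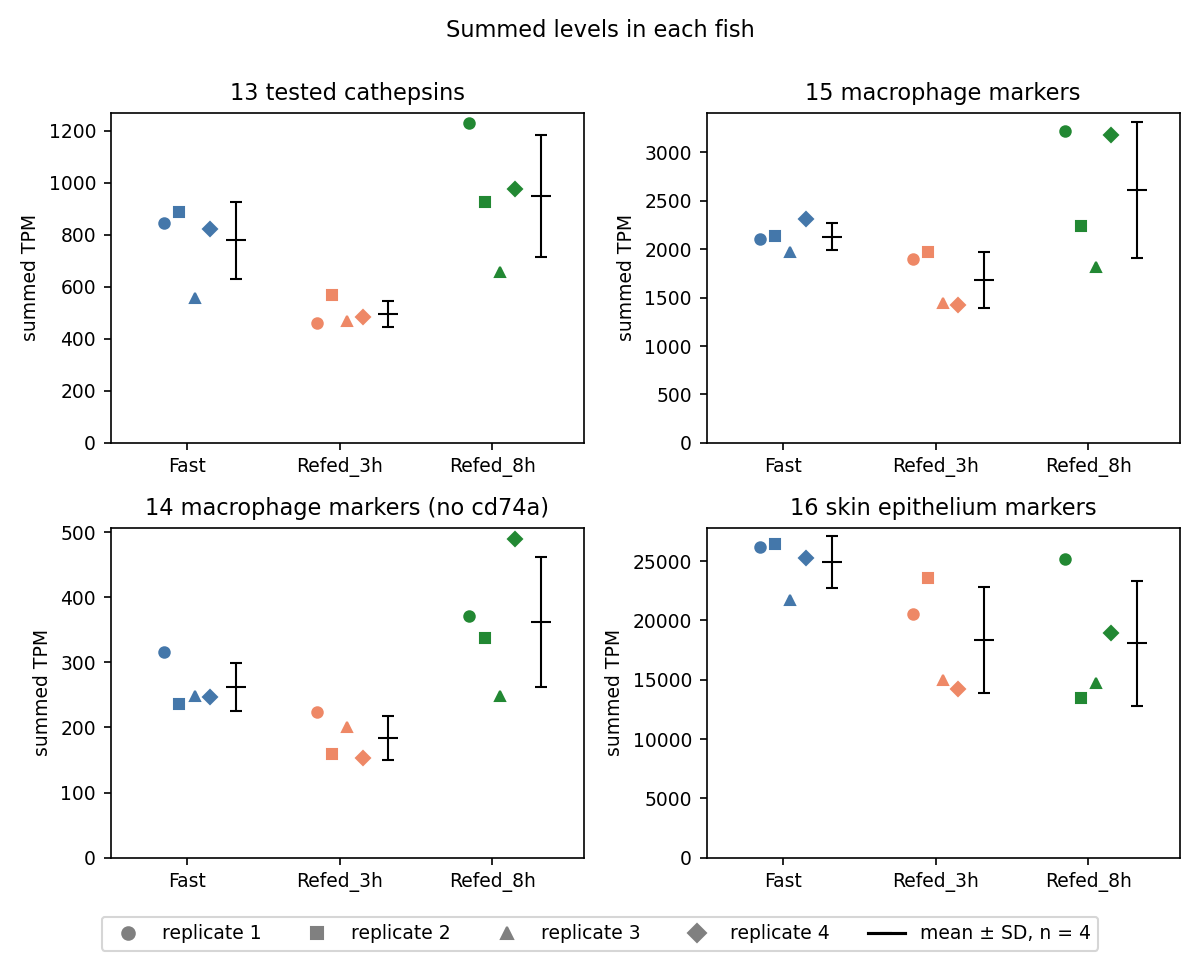
Summed TPM per fish (y axes, linear, starting at 0) of the 13 tested cathepsins, of 15 macrophage markers, of 14 of these without cd74a, and of 16 skin epithelium markers, with the mean ± SD of 4 fish. The cathepsin sum and the macrophage sum without cd74a are higher in every Refed_8h fish than in every Refed_3h fish, while the sums of all 15 macrophage markers and of the skin markers overlap between the refed groups.

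The remaining 7 cathepsin genes did not pass the filter on low counts and were not tested. Over all 12 libraries, ctsbb had 112 counts, ctsll 107, ctsl.1 102, and the 4 genes named ctslb_1 to ctslb_4 had 2, 3, 1 and 2 counts. The ctslb genes lie on chromosome 12, and ctslb_2 and ctslb_3 share 2507 bases on the same strand, so their counts cannot be separated here. The counts of ctsll were not spread evenly: its mean TPM was 0.378 ± 0.27 in the fasted fish, against 1.08 ± 0.45 in Refed_3h and 0.497 ± 0.156 in Refed_8h (SD, n = 4). It passed the filter and was called between Refed_3h and Fast when Fast replicate 1 or Refed_8h replicate 2 was left out. That is a gene with 2 to 20 counts per library.

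For the V-ATPase, edgeR called no tested gene in any of the 3 comparisons. Of 21 tested V0 and V1 genes, 0 passed in edgeR between Refed_3h and Fast, where 4.9% of all tested genes did, 0 between Refed_8h and Fast (1.4% of all), and 0 between Refed_8h and Refed_3h (6.41% of all). At an unadjusted p under 0.05 there were 3, 2 and 6 such genes, beside 22.9%, 13% and 22.4% of all tested genes, and the lowest adjusted p-values were 0.12, 0.36 and 0.1. The missing calls bound the changes only loosely. The 95% interval lay within 1 log2 unit of 0 for 19, 18 and 19 of the 21 genes, and within 0.5 log2 units for 10, 9 and 7. The median log2 fold changes of the 21 were 0.12, 0.15 and 0.09.

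**Figure D3:**
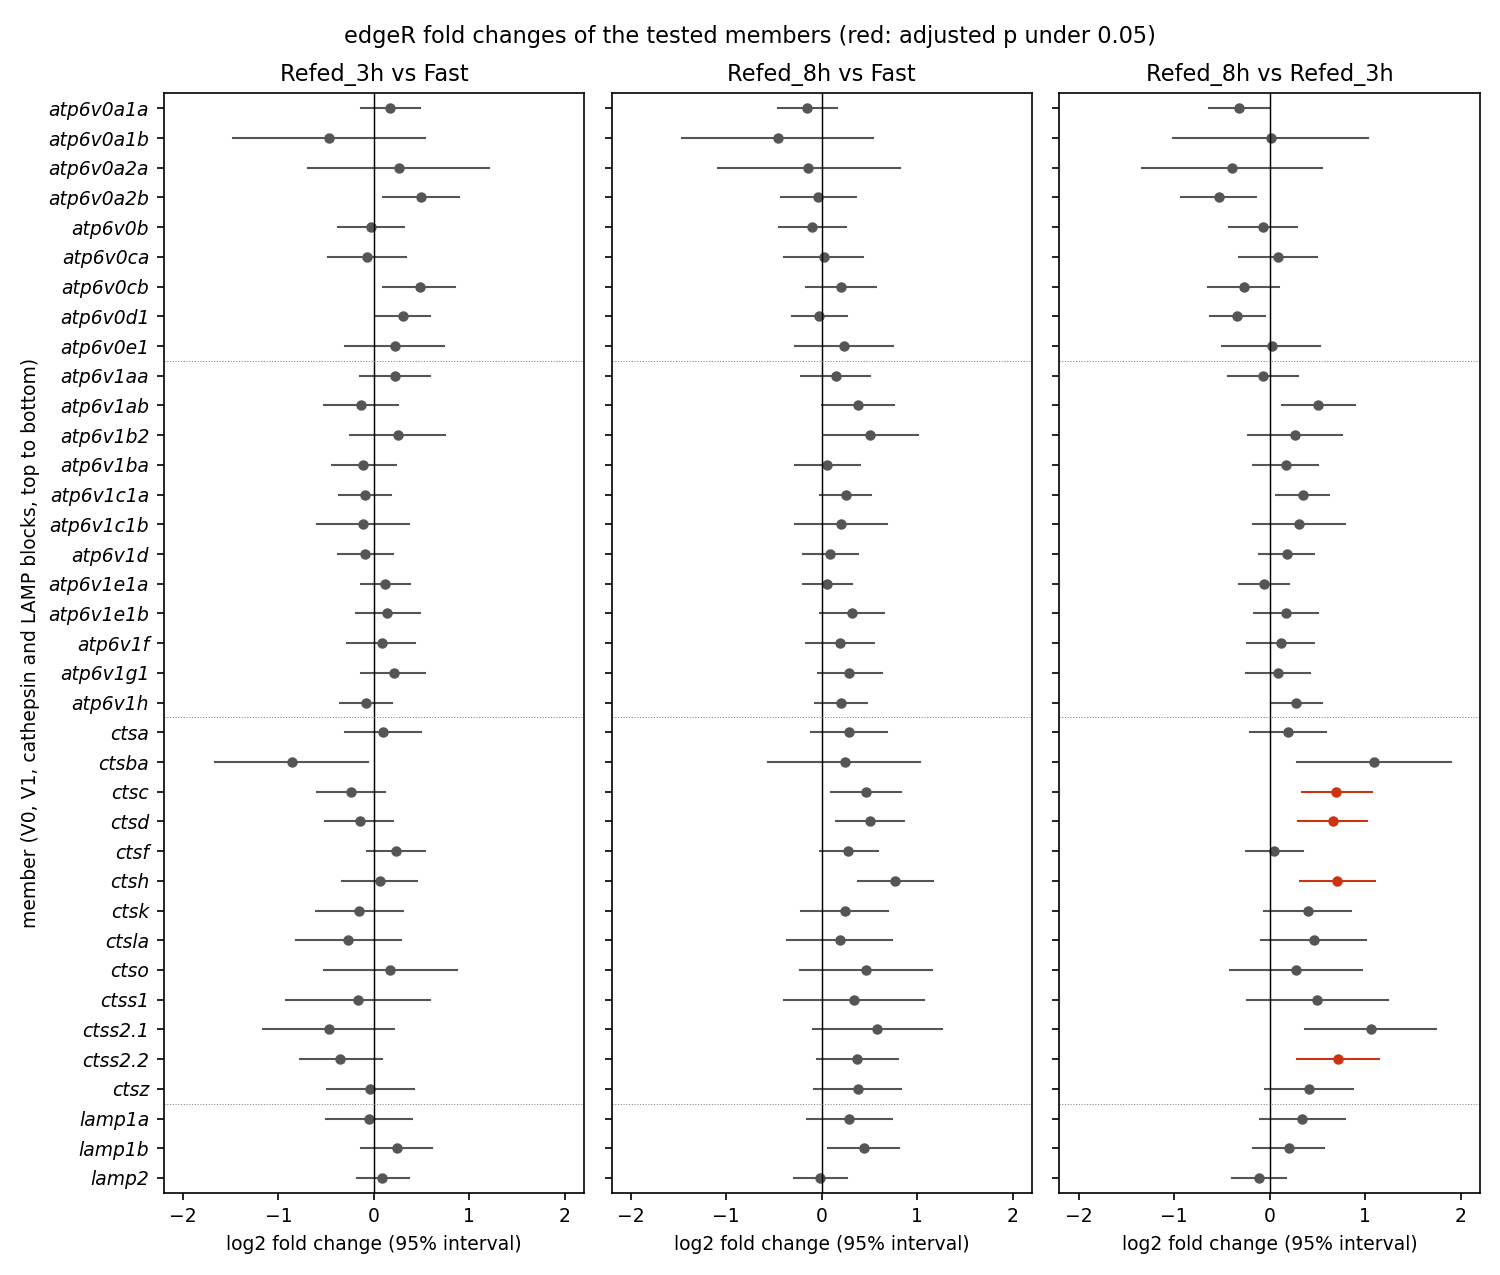
edgeR log2 fold changes (x axis) with 95% intervals for the 37 tested genes (y axis, in blocks of V0, V1, cathepsin and LAMP genes) in the 3 comparisons, in red where the adjusted p is under 0.05. The 4 red points are ctsc, ctsd, ctsh and ctss2.2 between Refed_8h and Refed_3h, and the V-ATPase intervals reach 0 or come close to it.

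In the V0 sector the ring of c subunits carries the protons, subunit a provides the path on either side of the ring, and d and e complete the sector. The c subunit was the most abundant V0 transcript: atp6v0ca had a mean of 123 TPM and made up 78.5% of the c transcripts, with atp6v0cb as the rest. In the single fish atp6v0ca was at 154, 156, 106 and 128 TPM in Fast, 115, 133, 86.4 and 78.2 in Refed_3h, and 174, 124, 93.4 and 129 TPM in Refed_8h. The 3 groups overlapped throughout. Its fold changes were -0.07, 0.02 and 0.09 log2 units in the order Refed_3h against Fast, Refed_8h against Fast and Refed_8h against Refed_3h (SE 0.19 each).

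Subunit a, which in mammals also decides in which membrane the pump sits, was read mostly from atp6v0a1a. It held 76.4% of the a transcripts, atp6v0a2b 18.7%, atp6v0a1b 2.76% and atp6v0a2a 2.18%. The TPM of atp6v0a1a were 14.7, 13.7, 13.6 and 11.3 in Fast, 11.0, 12.6, 11.3 and 11.9 in Refed_3h, and 12.3, 12.2, 9.33 and 10.7 in Refed_8h, and the groups overlapped. Both atp6v0a1b and atp6v0a2a had 4 to 20 counts per library, and their intervals reach beyond 1 log2 unit in every comparison, so no direction is given for them.

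The 3 V0 genes with an unadjusted p under 0.05 between Refed_3h and Fast had positive fitted differences, and none was called. For atp6v0a2b the log2 fold change was 0.49 from Fast to Refed_3h (SE 0.18, adjusted p = 0.13) and -0.53 from Refed_3h to Refed_8h (SE 0.18, adjusted p = 0.1 in edgeR). For atp6v0cb it was 0.48 (SE 0.17, adjusted p = 0.12) and -0.27 (SE 0.17). For atp6v0d1, the rotor-docking subunit, it was 0.31 (SE 0.13) and -0.34 (SE 0.13). On the TPM scale the groups overlapped for all 3 genes. In the order Fast, Refed_3h and Refed_8h the mean TPM of atp6v0a2b were 2.93, 3.25 and 2.65, and those of atp6v0cb were 30.8, 33.4 and 32.3, also highest at 3 h. Those of atp6v0d1 were 26.1, 25.6 and 23.9, so its direction from Fast to Refed_3h turned with the scale. The V0 medians were 0.22, -0.04 and -0.27 log2 units in the 3 comparisons.

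Over its span on the genome atp6v0e1 shares 2712 bases with the ribosomal protein gene rpl26 on the same strand. The latter had 159838 counts against 3891, so the level of atp6v0e1 (mean 7.12 TPM) is uncertain. Likewise atp6v1f shares 3106 bases with lamtor4 on the opposite strand, and the strand setting of the counting is not stated in any source used here. Also on the opposite strand, atp6v0a1b shares 391 bases with cavin1b, which had 7190 counts against 148. In the same way ctsba shares 726 bases with cgref1 (1384 counts against 32528), and ctsf 554 with trpt1 (1417 against 5271). The 4 called cathepsins overlap no other gene in the table.

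In the V1 sector, A and B form the head that splits ATP, D and F the rotor shaft, E and G the outer stalks, and C and H link and regulate the sectors. The G subunit atp6v1g1 was the most abundant, at 124, 107, 120 and 131 TPM in the fasted fish, 114, 116, 110 and 96.5 TPM in Refed_3h, and 131, 162, 123 and 126 TPM in Refed_8h. All Refed_8h fish lay above all Refed_3h fish in TPM, but not on the TMM scale, where the log2 fold change was 0.09 (SE 0.16). 

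The catalytic subunit A came from 2 genes. In replicates 1 to 4 atp6v1aa measured 18.7, 13.2, 10.0 and 13.3 TPM in Fast, 12.1, 16.4, 12.6 and 9.44 in Refed_3h, and 18.8, 12.8, 10.1 and 15.6 TPM in Refed_8h, with no separation of the groups. Its copy atp6v1ab held 34.5 ± 3.2% of the A transcripts in Fast, 29.4 ± 2.91% in Refed_3h and 38.3 ± 3.35% in Refed_8h (SD, n = 4). Its mean TPM was 5.17 ± 0.565 in Refed_3h and 8.84 ± 2.13 in Refed_8h, without overlap. The log2 fold change of atp6v1ab was 0.51 (SE 0.18, adjusted p = 0.1 in edgeR), and that of atp6v1aa was -0.07 (SE 0.17). With a skin marker score as a covariate atp6v1ab was called, at 0.64 (adjusted p = 0.039), the 1 V-ATPase call among all alternatives. The difference between the copies was not tested.

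The B subunit was read mainly from atp6v1ba (77.4% of B transcripts), with 34.3, 23.6, 21.4 and 31.0 TPM in Fast, 20.7, 22.9, 22.7 and 14.5 in Refed_3h, and 35.6, 24.5, 19.5 and 28.1 TPM in Refed_8h. These groups overlapped, and the fitted difference between the refed groups was 0.17 log2 units (SE 0.16). For atp6v1b2, the largest V1 difference against Fast was seen in Refed_8h, 0.51 (SE 0.23, adjusted p = 0.36).

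For subunit C, atp6v1c1a held 79.5% of the transcripts, with 19.7, 15.9, 13.3 and 15.3 TPM in Fast, 11.9, 11.9, 12.0 and 11.1 in Refed_3h, and 21.9, 15.1, 14.8 and 19.8 TPM in Refed_8h. Refed_3h lay below both other groups without overlap in TPM, and below Refed_8h also on the TMM scale. The log2 fold change from Refed_3h to Refed_8h was 0.35 (SE 0.13, adjusted p = 0.12), which was not called. The copy atp6v1c2 had 11 counts in all 12 libraries together and was not tested.

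Subunit E was split most evenly, 55.0% from atp6v1e1a and 45.0% from atp6v1e1b. The fish had 32.9, 29.9, 33.8 and 31.5 TPM of atp6v1e1a in Fast, 27.5, 31.0, 25.3 and 25.7 TPM in Refed_3h, and 37.8, 23.7, 29.7 and 34.6 TPM in Refed_8h. The Refed_8h fish spanned the values of both other groups. With a log2 fold change of -0.06 (95% interval -0.32 to 0.20) between the refed groups, it has one of the narrower intervals among the V1 genes.

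All 12 tested V1 genes had positive fitted differences in Refed_8h against Fast (median 0.20), and 10 of 12 in Refed_8h against Refed_3h (median 0.18). These stand beside 50.4% and 51.1% of all tested genes. None of the V1 genes was called, and genes measured in the same fish are not replicates. The summed V1 level in TPM was 343 ± 32 for Fast, 286 ± 27.6 for Refed_3h and 370 ± 37.1 for Refed_8h (SD, n = 4), and the summed V0 level was 239 ± 27.9, 201 ± 25.9 and 227 ± 36.5 TPM. Both sums overlapped between Fast and each refed group. Groups that did not overlap in TPM were found between the refed groups for 5 of 12 V1 genes, 5 of 13 cathepsins, 1 of 3 LAMP genes and 0 of 9 V0 genes, all higher in Refed_8h. Together these are 11 of 37 genes, beside 11.7% of all tested genes. On the TMM scale 7 of the 37 were apart with Refed_8h higher, beside 7.03% of all tested genes, and 2 V0 genes with Refed_8h lower, beside 7.94%.

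**Figure D4:**
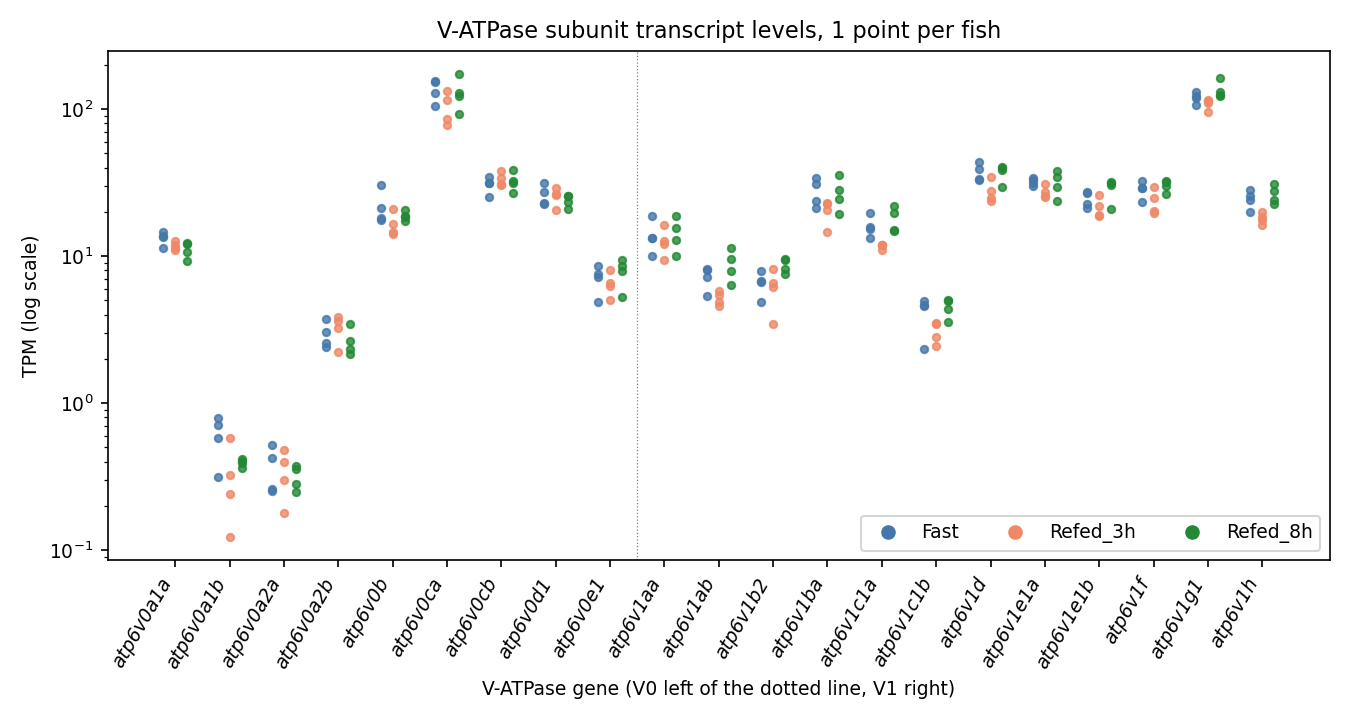
TPM (y axis, log scale) of the 21 tested V-ATPase genes, 1 point per fish and 1 colour per group, with V0 genes left of the dotted line and V1 genes right of it. Levels span from under 1 TPM for atp6v0a1b and atp6v0a2a to over 100 TPM for atp6v0ca and atp6v1g1, and the groups overlap for most genes.

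The V-ATPase also works in ionocytes, the ion-transporting cells of fish skin. Their 9 markers summed to no more than 8.95 TPM in any fish, 3 of them passed the filter and none was called, and the anion exchanger slc4a1b was at 0 in all fish. Of all tested genes, 1.4% were called between Refed_8h and Fast and 6.41% between Refed_8h and Refed_3h. Of 14 tested genes for accessory subunits and assembly factors of the pump, 1 was called. It was oxr1b, whose yeast relative takes part in taking the pump apart, with 0.98 log2 units in Refed_8h against Fast (SE 0.19, adjusted p = 0.018 in edgeR) and a 2.14-fold difference against Refed_3h (adjusted p = 0.005).

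In Refed_3h against Fast, Refed_8h against Fast and Refed_8h against Refed_3h, edgeR called 4.9%, 1.4% and 6.41% of all tested genes. None of the 3 LAMP genes was called in any comparison, which at such shares does not set them apart. The most abundant was lamp2, which in mammals also serves chaperone-mediated autophagy. It measured 63.2, 52.2, 53.7 and 52.6 TPM in Fast, 52.9, 54.4, 45.5 and 34.3 in Refed_3h, and 60.3, 49.9, 41.9 and 52.3 TPM in Refed_8h. The groups overlapped, with log2 fold changes of 0.09, -0.02 and -0.11 (SE 0.13 each). Of the lamp1 transcripts, 73.3% came from lamp1b, with 22.6, 25.2, 26.1 and 23.3 TPM in Fast, 24.2, 21.2, 20.6 and 23.8 in Refed_3h, and 28.7, 32.1, 31.9 and 29.4 TPM in Refed_8h. All Refed_8h fish exceeded the 8 others in TPM, though not on the TMM scale. The fitted difference of lamp1b against Fast was 0.44 (SE 0.17, adjusted p = 0.28) and that against Refed_3h was 0.20 (SE 0.17, adjusted p = 0.55). Limma on log2(TPM + 1) with no filter called the latter, at 0.43 (adjusted p = 0.017).

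Other lysosomal enzymes, which the name rule does not reach, were listed by function. Of all tested genes, 6.41% were called between Refed_8h and Refed_3h (3.06% higher) and 4.9% between Refed_3h and Fast. Of 17 tested lipid enzymes and phosphatases, 7 were called higher in Refed_8h than in Refed_3h and 0 lower, with a median of 0.63 log2 units. Among them were pld3, a phospholipase D family member, at 1.29 (SE 0.30), the acid ceramidase asah1a at 0.95 (SE 0.25) and the galactosylceramidase galca at 0.87 (SE 0.23). The lysosomal acid phosphatase acp2 was called in 2 comparisons, lower in Refed_3h than in Fast by -1.30 (SE 0.21, adjusted p = 0.0053 in edgeR), and higher in Refed_8h than in Refed_3h by 0.87 (SE 0.21, adjusted p = 0.029). Of 29 sugar-cleaving enzymes and sulfatases, 3 were higher in Refed_8h than in Refed_3h (the beta-galactosidase glb1, 0.90; the beta-mannosidase manba, 0.81; the fucosidase fuca2, 0.79), and the sulfatase ids was lower in Refed_3h than in Fast (-0.86). Of 8 other peptidases 1 was called, the asparagine-specific lgmn, which cuts cathepsin precursors in mammals. Its difference between the refed groups was 0.78 (SE 0.16, adjusted p = 0.012 in edgeR), and its mean level in TPM was 69.2 ± 7.37 for Fast, 47.0 ± 4.94 for Refed_3h and 97.3 ± 26.2 for Refed_8h (SD, n = 4).

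Lysosomal membrane proteins were called in both directions. Of 25 tested, 6 were higher and 2 lower in Refed_8h than in Refed_3h, and 1 was higher and 3 lower in Refed_3h than in Fast. These stand beside 6.41% of all tested genes called in the first comparison and 4.9% in the second. The nucleoside transporter slc29a3 was lower by -1.63 log2 units at 3 h and higher by 1.65 between 3 h and 8 h (SE 0.21 each), and the cystine exporter ctns by -0.90 and 0.77 (SE 0.19 each). The ion channel tmem175 was higher by 1.76 between the refed groups (SE 0.47), at a mean of 1.18 TPM. In contrast scarb2a, a relative of the mammalian carrier of glucocerebrosidase, was lower in Refed_8h than in Fast (-1.19) and than in Refed_3h (-1.27, SE 0.21 each). Its copy scarb2c went the other way in TPM. The means of scarb2c were 11.2 ± 2.68 in Fast, 7.62 ± 1.5 in Refed_3h and 15.9 ± 4.55 in Refed_8h (SD, n = 4). The refed groups did not overlap for it.

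Among sorting proteins, 1 of 9 was called, the mannose 6-phosphate tagging enzyme gnptab, lower in Refed_8h than in Refed_3h by -0.52 (SE 0.14). In that comparison 6.41% of all tested genes were called, and 4.9% in Refed_3h against Fast, so 1 call sets no such short list apart. Of 12 tested genes of the Rag-Ragulator and folliculin complexes, which report nutrients from the lysosome to mTORC1, 1 was called. This was fnip1, a partner of folliculin, at -0.65 in Refed_3h against Fast and 0.67 in Refed_8h against Refed_3h (SE 0.14 each). None of 5 tested cystatins, the inhibitors of cysteine cathepsins, was called in edgeR. The most abundant of them, cst3, averaged 180, 178 and 197 TPM in Fast, Refed_3h and Refed_8h.

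The MiT/TFE transcription factors switch on lysosomal genes in mammals and are controlled largely by their location in the cell, which transcript levels do not show. Of 6 genes, 5 were tested and none was called. Called shares over all tested genes were 4.9% for Refed_3h against Fast, 1.4% for Refed_8h against Fast and 6.41% between the refed groups. At such shares, 0 of 5 does not set these factors apart. The most abundant, tfeb, had a mean of 11.8 TPM and log2 fold changes of 0.72 (SE 0.34, adjusted p = 0.23 in edgeR), 0.53 (SE 0.34) and -0.19 (SE 0.34) in Refed_3h against Fast, Refed_8h against Fast and Refed_8h against Refed_3h. In the fish it measured 7.61, 9.61, 11.6 and 9.94 TPM in Fast, 19.8, 8.58, 10.3 and 11.4 in Refed_3h, and 10.0, 6.64, 16.2 and 20.3 TPM in Refed_8h. The groups overlapped, and the highest fish of both refed groups were close, at 19.8 and 20.3 TPM. The others, mitfa, tfe3a, tfe3b and tfec, averaged 0.78 to 1.87 TPM, and mitfb had too few counts to be tested. In Refed_3h, tfe3b was at 0.499 times its Fast level (adjusted p = 0.29 in edgeR). In that comparison mitfa, tfe3a and tfec differed by -0.37, -0.80 and -0.27 log2 units. Between the refed groups 4 of the 5 tested factors, all but tfeb, had positive fitted differences. The median of the 5 was 0.48 log2 units there, where all tested genes had 0.01. In Refed_8h against Fast 2 of the 5 were positive, with a median of -0.05.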

How the data were processed

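Poly(A) RNA from trunk muscle of 12 fish was sequenced as paired-end reads of 36 bases. The authors mapped them to GRCz11 with CLC Genomics Workbench 20.0.4 and deposited 1 table of 25281 genes; no source used here states the annotation release, the strand setting or how reads with several matches were counted. The deposited counts are whole numbers per gene, not normalized. The deposited TPM are per exon length and have equal sums in all fish. The authors' RPKM, scaled CPM, fold changes and p-values were not used. Columns were matched to fish by name, with 0 columns of values per fish left unmatched.

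Counts were analysed with edgeR 4.0.16 in R 4.3.3: filterByExpr (16745 genes kept), TMM factors of 0.79 to 1.21, a robust quasi-likelihood fit of the 3 groups and glmQLFTest per contrast, with Benjamini-Hochberg adjustment over all tested genes. A call had an adjusted p under 0.05. Standard errors are the log2 fold change over the square root of F, and 95% intervals use the fit's degrees of freedom. The p-values set each group difference against the spread between single fish. The study's methods describe a small tank in which the fish were fed together, and no repeat of the experiment. Spread between tanks or feeding events was therefore not measured. Over 18 pairs within groups the chi-square per gene was 31.2 to 63.2, so no library looked like a repeat. The fit was tested on simulated counts. Each fit was repeated with DESeq2 1.42.0, with RLE factors, without the filter, on 2 groups alone, with replicate number as block or as a covariate of 2 levels, with limma 3.58.1 on log2(TPM + 1) or log2(TPM + 0.1) with a mean of at least 0.5 TPM or no filter, with a skin marker score, with a 2-fold threshold, and with each library left out in turn.

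The members, the other lists and the tests were chosen with earlier results of these data known. Any member could be named, with values in each fish for called members and for the most abundant gene of each role or paralogue group described; from other lists up to 4 called genes of largest change, all MiT/TFE factors and the most abundant marker. Outside this rule, ctss2.1, atp6v0a2b, atp6v0d1, cst3, mpx, slc4a1b, scarb2c, rpl26, lamtor4, cavin1b, cgref1 and trpt1 were described after their values were seen. A gene name table held 43 of the 45 IDs, and the deposited symbols were kept. Promoter motifs and protein sequences were not analysed here.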

Additional observations from a re-analysis of the deposited data

Results flagged for a closer look

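Each gene's TPM in the 4 fish of a group was checked for a fish far from the other 3, which chance gives in about 1 in 20 groups. Of 111 groups checked over the 37 genes, 4 had such a fish. In Fast, replicate 3 was low for ctsh, at 32.9 TPM where the others had 50.2 to 51.9, and for atp6v1c1b, at 2.33 TPM where the others had 4.59 to 4.99. Also in Fast, replicate 1 was high for lamp2, at 63.2 TPM beside 52.2 to 53.7. In Refed_3h, replicate 4 had 11.1 TPM of atp6v1c1a beside 11.9 to 12.0 in the others, a small gap in a tight group.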

How the results depend on the processing

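Between Refed_8h and Refed_3h 4 members passed. Under DESeq2, RLE factors, no filter, the fit of 2 groups, the covariates and limma, 3 to 6 did. Among them were ctss2.1, ctsba, atp6v1ab with the skin score and lamp1b in limma with no filter. With the 2-fold threshold 0 passed. Of all tested genes the main fit called 1074. DESeq2 called 1776 and the fit with the skin score 1439, with 6 members in each. Limma on log2(TPM + 1) called 672 of 16273 genes (5 members), and with no filter 487 of 25281 (3 members). With 1 library left out, 0 to 5 members passed. It was 0 without Refed_3h replicate 1, 2 or 3 or Refed_8h replicate 1, 2 or 4. Without Refed_3h replicate 4 it was 2 (ctsba and ctsc). All-gene calls then fell as well, from 1074 to 459 to 836. Over 22 alternatives, ctsc kept 0.62 to 0.93 log2 units and passed in 15 (adjusted p 0.002 to 0.087), ctsd passed in 15 (0.0033 to 0.11), ctsh in 14 (0.0063 to 0.1) and ctss2.2 in 11 (0.011 to 0.12).

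Between Refed_8h and Fast 0 members passed in edgeR, and 6 had an unadjusted p under 0.05, beside 13% of all tested genes. DESeq2, the covariate for replicate numbers 1 and 2 against 3 and 4 and the skin score gave 1 each. These called 656, 323 and 129 of all tested genes, beside 234 in the main fit. Leaving out a library gave 0 to 1. Each time the member was ctsh (adjusted p 0.0051 to 0.31 over 22 alternatives). Between Refed_3h and Fast 0 members passed in edgeR, and 4 had an unadjusted p under 0.05, beside 22.9% of all tested genes. Limma on log2(TPM + 1) and on log2(TPM + 0.1) gave 1 each (ctsba), beside 1242 and 1344 of 16273 genes. Leaving out a library gave 0 to 1 (ctsll without Fast replicate 1 or Refed_8h replicate 2), and DESeq2 gave 0.

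The median over the members moved with the scale. In Refed_3h against Fast it was -0.03, with -0.27, -0.37 and -0.27 in limma on log2(TPM + 1), on log2(TPM + 0.1) and with no filter, 0.09 with the skin score, and -0.07 to 0.04 with a library left out. In Refed_8h against Refed_3h it was 0.19, with 0.41, 0.44 and 0.40 in limma and 0.13 to 0.28 with a library left out. Against Fast, Refed_8h gave 0.24, and 0.12 to 0.31 with a library left out. In limma on log2(TPM + 1), 23 of 105 fitted values had another sign than in edgeR, none of them over 0.31 in size.

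The labels do not say that a replicate number is shared by design, so the numbers were not taken as pairs in the main fit. Deviations of same-numbered fish correlated by -0.19 to 0.27, with 7 of 12 pairs over 0.1. Those of differently numbered fish correlated by -0.28 to 0.19, with a smaller share over 0.1. With numbers 1 and 2 against 3 and 4 as a covariate, 1373 genes were called between Refed_8h and Refed_3h, beside 1074 in the main fit. Shared structure by number is thus not excluded. With the replicate block, 0, 1 and 5 members passed in Refed_3h against Fast, Refed_8h against Fast and Refed_8h against Refed_3h. Over all tested genes the block gave 934, 280 and 1166 calls in the same order, beside 821, 234 and 1074 in the main fit. The planned promoter motif search was not run. Depth limits the genes of few counts, such as atp6v0a1b with 148 counts over 12 libraries.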
